A study of Mus musculus with 12 samples.

Results

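The genes described here are 36 mouse genes of glycolysis and of the response to low oxygen, chosen by name out of 24532 genes in the expression table. They are 3 membrane carriers of glucose and lactate, 15 glycolytic enzymes, 3 regulators of the flux through glycolysis, 3 genes of oxygen sensing and 12 genes known as targets of hypoxia. All 36 were in the table, and all 36 passed the filter on low counts that left 16466 genes for testing. Their expression was measured by bulk RNA sequencing of ear skin in 12 libraries, which form 4 groups of 3. The mice were specific-pathogen-free (SPF), which carry a microbiota, or germ-free (GF), which carry none, and the skin was given ethanol or MC903. MC903 (calcipotriol) is an analogue of vitamin D, which on mouse skin causes an inflammation like atopic dermatitis, and ethanol is its vehicle. The labels state 5 applications for every group, in words that do not settle whether this was per day. No genetic change is named in any group, and the sources used here state neither age nor sex. The strain reads C57BL/6 in 9 libraries, while GF MC903 4 reads C57BL/7, GF ethanol 5 reads C57BL/8 and GF MC903 5 reads C57BL/9. The question put by the series is how the microbiota changes the transcriptome of inflamed skin.

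Glycolysis splits glucose into pyruvate and yields ATP without oxygen, and lactate dehydrogenase turns the pyruvate into lactate, which leaves the cell through monocarboxylate carriers. Cells short of oxygen stabilise hypoxia-inducible factor 1 (HIF-1), because the oxygen-dependent prolyl hydroxylases that mark its alpha subunit for destruction then work poorly. HIF-1 raises the transcription of glucose carriers, most glycolytic enzymes and genes of blood vessel growth, and inflammation and growth signals can raise the same genes at normal oxygen. The epidermis is poor in oxygen even in healthy skin, and keratinocytes rely heavily on glycolysis.

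Library totals lay between 36358294 and 48225425 estimated counts. SPF libraries are numbered 1, 2 and 3 and GF libraries 1, 4 and 5, and values below follow that order. The labels do not say that each library came from a separate mouse, so a p-value here reflects the spread among libraries, which may be technical. Levels are given as CPM, counts scaled to a common TMM-corrected library size, and a change is a log2 fold change ± its standard error (SE) with an adjusted p from edgeR's quasi-likelihood test. The TMM factors, which correct each library for its composition, were 1.16 to 1.25 with ethanol and 0.807 to 0.836 with MC903, so the scaling moves every response to MC903. On library totals alone the median log2 change of all genes tested was -0.68 rather than -0.10 in SPF skin and -0.58 rather than -0.07 in GF skin. In each group 9 of 9 keratinocyte markers were detected, and so were 6 of 6 fibroblast and 10 of 10 skeletal muscle markers. The samples thus hold tissue beside the epidermis. In bulk skin, fewer cells of a type and less RNA per cell cannot be told apart.

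The promoters of the genes were read first, because HIF-1 is known to bind the core letters ACGTG, or less often GCGTG, in hypoxia response elements. RefSeq windows of 300 bases on GRCm38.p6, from 250 before to 50 after a transcript's start, were found for 35 of the 36 genes, 51 windows in all, and Ndrg1 had no entry. ACGTG on either strand lay in a window of 26 of the 35 genes (74.3%), against 21.8% of the 27025 genes of the promoter table. GCGTG lay in 23 (65.7%), against 35.2%. At least 1 of the cores was found in 32 genes (91.4%), against 46.7%. Both cores contain CG, and the windows of these genes were richer in C and G, with a median of 63% against 52.7% in all 32851 windows and 56.7% in all windows with ACGTG. Counted per window rather than per gene, ACGTG lay in 58.8% of the 51 windows, against 19.6% of all windows. The genes were chosen by name, many as known targets of hypoxia, so a surplus of the cores is no independent evidence. The comparison is with every gene of the promoter table, whether tested here or not. A match is a description of the letters and does not mark a bound site. The windows of 4 genes are printed below 5′ to 3′ on the gene's own strand, with every core in capitals (ACGTG or GCGTG, or CACGT or CACGC where it is read on the other strand, so that CACGTG holds overlapping copies). They were picked after the values had been seen: Slc16a3, the carrier with the largest rise, Ldha, the enzyme with the largest rise and the most ACGTG, Hif1a, with the largest difference between the housings, and Tpi1, an enzyme that rose with neither core in its window.
Slc16a3, chr11:120948817-120949116, + strand: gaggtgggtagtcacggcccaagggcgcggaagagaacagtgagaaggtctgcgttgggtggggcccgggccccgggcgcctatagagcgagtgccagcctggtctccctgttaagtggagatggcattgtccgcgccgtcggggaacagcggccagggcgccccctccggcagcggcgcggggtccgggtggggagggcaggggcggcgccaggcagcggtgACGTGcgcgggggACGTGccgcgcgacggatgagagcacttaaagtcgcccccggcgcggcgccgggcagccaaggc
Ldha, chr7:46845554-46845853, + strand: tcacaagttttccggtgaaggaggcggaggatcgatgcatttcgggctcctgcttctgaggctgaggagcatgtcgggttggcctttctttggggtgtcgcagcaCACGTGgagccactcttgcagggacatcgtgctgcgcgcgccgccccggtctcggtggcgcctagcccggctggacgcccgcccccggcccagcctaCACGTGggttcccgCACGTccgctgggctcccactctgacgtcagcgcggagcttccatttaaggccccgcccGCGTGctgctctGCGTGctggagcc
Hif1a, chr12:73907617-73907916, + strand: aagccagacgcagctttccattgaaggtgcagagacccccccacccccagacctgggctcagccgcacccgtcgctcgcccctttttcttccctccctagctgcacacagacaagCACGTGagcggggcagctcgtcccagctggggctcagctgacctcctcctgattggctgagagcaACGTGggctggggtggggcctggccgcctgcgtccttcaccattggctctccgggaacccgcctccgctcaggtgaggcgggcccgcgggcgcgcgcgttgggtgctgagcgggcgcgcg
Tpi1, chr6:124814109-124814408, - strand: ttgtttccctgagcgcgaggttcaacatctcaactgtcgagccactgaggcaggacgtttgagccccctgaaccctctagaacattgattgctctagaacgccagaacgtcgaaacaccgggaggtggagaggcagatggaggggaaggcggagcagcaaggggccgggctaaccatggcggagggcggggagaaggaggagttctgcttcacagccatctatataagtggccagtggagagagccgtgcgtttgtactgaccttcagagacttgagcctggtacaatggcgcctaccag

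The Slc16a3 window held 2 copies of ACGTG and none of GCGTG, counted on both strands. Ldha held 5 of ACGTG and 2 of GCGTG, Hif1a held 3 and 0, and Tpi1 held 0 of both. The 26 genes with ACGTG had a median log2 change with MC903 of 1.12 in SPF skin and 0.73 in GF skin, and the 9 without it had 1.38 and 0.75. The genes with ACGTG thus had no higher a median than those without it. Of the latter, only Car12, Gpi1 and Tpi1 also lacked GCGTG, so the split does not set genes with a core against genes with none. No test was run on this split.

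MC903 raised most of the 36 genes in both housings, and in 15 of them, among them 9 of the 15 glycolytic enzymes, the response was smaller in germ-free skin by the test of the difference. In SPF skin 25 genes rose, 5 fell and 6 did not pass the test at an adjusted p of 0.05. Of all genes tested there, 73.8% passed the test, 35.0% rising and 38.8% falling. The median log2 change of the 36 was 1.12, beside -0.10 for all genes tested. In GF skin 22 rose, 5 fell and 9 did not pass, where 68.5% of all genes tested passed, 33.4% rising and 35.1% falling, and the median was 0.75 beside -0.07. On library totals the counts became 20 rising and 11 falling in SPF skin and 17 rising and 10 falling in GF skin. Of all 16466 genes tested, 3127 rose and 10106 fell in SPF skin on library totals, and 2795 and 9697 did in GF skin. The difference between the responses, GF minus SPF, was tested directly. It was negative and past the threshold in 15 genes and positive in 1, P4ha2, against 9.26% and 7.75% of all genes tested. Of the 25 genes that rose in SPF skin, 21 rose in GF skin too, and in 17 of these the GF change was the smaller. The ratio of the GF to the SPF log2 change among these 21 had a median of 0.683, with a range of 0.48 to 1.43. Both responses share no library, and across the 36 genes, which are not independent replicates, their Pearson r was 0.905. These counts, the ratio and r were not computed over all genes tested, so they are not shown to be particular to the 36. Picking genes by their rise in SPF skin also favours a smaller GF change among them.

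**Figure D1:**
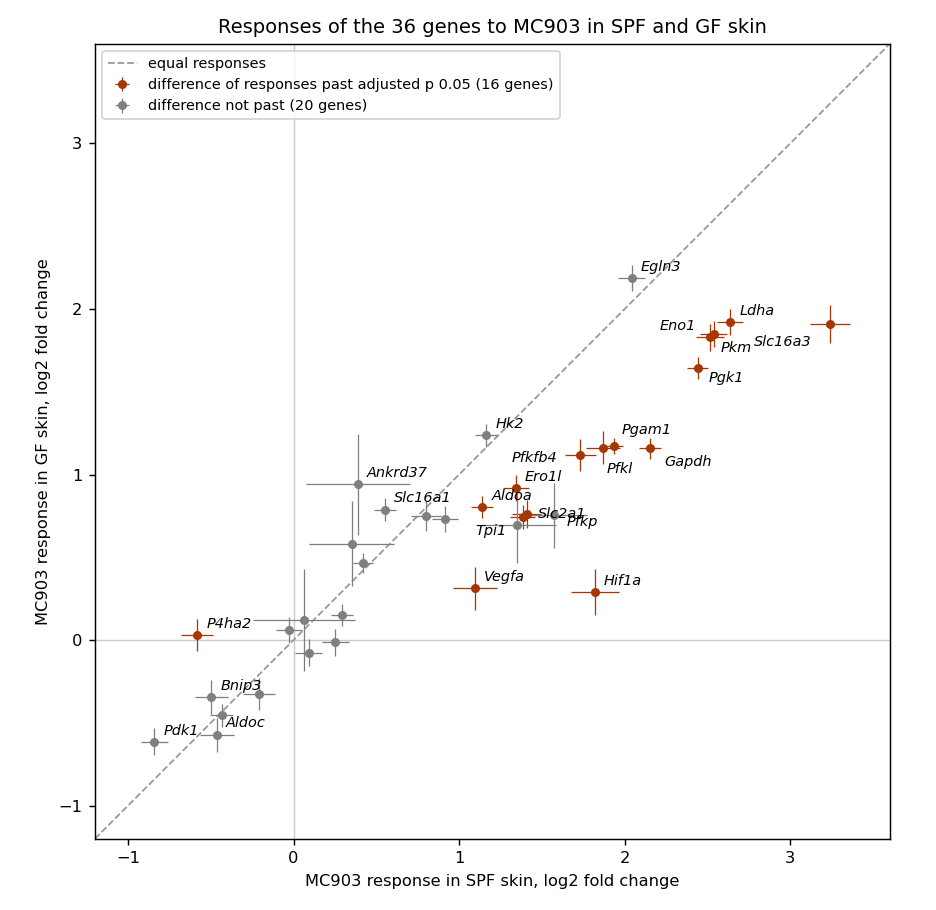
Log2 change with MC903 of each of the 36 genes in SPF skin (x axis) and in GF skin (y axis), with bars of ± 1 SE. The dashed line marks equal responses, and coloured points are the 16 genes whose difference of responses passed an adjusted p of 0.05. Of these, 15 lie below the line and P4ha2 lies above it, with Hif1a, Slc16a3 and Gapdh farthest below.

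The carriers were led by Slc16a3, and its difference of responses was the largest among the carriers and enzymes. Slc16a3 (also MCT4, chromosome 11, 120948484 to 120959000) exports lactate from glycolytic cells and overlaps Csnk1d, whose reads cannot be told apart where strand is not used. Its levels were 7.10, 5.51 and 6.46 CPM with ethanol and 61.3, 66.6 and 52.5 CPM with MC903 in SPF skin. In GF skin they were 9.06, 9.34 and 10.3 CPM with ethanol and 35.7, 39.0 and 33.0 CPM with MC903. Every GF library was above every SPF library with ethanol and below every one with MC903. The log2 change was 3.24 ± 0.12 in SPF skin (9.45-fold, adjusted p = 3.8e-10) and 1.91 ± 0.12 in GF skin (3.76-fold, adjusted p = 3.9e-08), with a difference of -1.33 ± 0.16 (adjusted p = 0.00027).

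Slc2a1 (also GLUT1) carries glucose into the cell and also rose less in GF skin, from starting levels that overlapped. It stood at 69.9, 80.4 and 62.6 CPM with ethanol and at 188.9, 182.0 and 193.9 CPM with MC903 in SPF skin. The GF libraries stood at 62.5, 69.6 and 63.9 CPM and at 109.4, 116.6 and 105.6 CPM. With ethanol the housings overlapped, and with MC903 every GF library was below every SPF library. The changes were 1.41 ± 0.09 and 0.76 ± 0.08, and their difference was -0.65 ± 0.12 (adjusted p = 0.0033). Slc16a1 (also MCT1), which moves lactate and other monocarboxylates in either direction, rose from 61.1 ± 3.09 to 89.6 ± 4.92 CPM (SD, n = 3) in SPF skin and from 58.3 ± 3.49 to 100.6 ± 3.56 CPM in GF skin. Its changes were 0.55 ± 0.07 and 0.79 ± 0.07, and the SPF change turned to -0.02 on library totals. The difference of 0.24 ± 0.09 did not pass the test (adjusted p = 0.11). Compared per transcript length, Slc16a3 made up 15.8% ± 1.83 (SD, n = 3) of the FPKM of both lactate carriers in SPF ethanol libraries and 54.5% ± 3.69 with MC903. In GF skin its share went from 22.7% ± 1.69 to 39.0% ± 1.44.

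The enzymes of the first phase of glycolysis, which spend ATP to make triose phosphates, did not move as one. Of 8 such genes, 5 rose, 2 fell and Hk1 did not pass in each housing, while 35.0% of all genes tested rose in SPF skin and 33.4% in GF skin. Pfkl, Pfkp, Hk2, Gpi1 and Aldoa rose, and Pfkm, the muscle type, and Aldoc, the brain form, fell. The difference of responses passed the test for Pfkl and Aldoa.

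**Figure D2:**
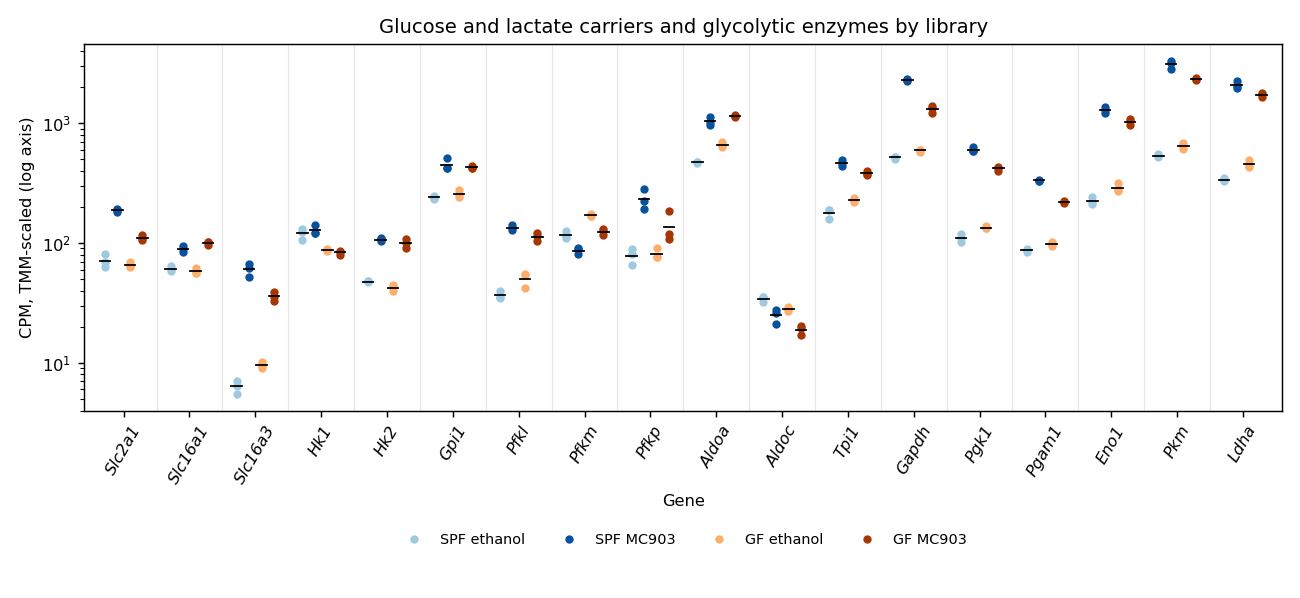
CPM on TMM-scaled library sizes (log axis) of the 3 carriers and 15 glycolytic enzymes in each library, coloured by group, with a black bar at each group's mean of 3 libraries. The enzymes from Tpi1 to Ldha show GF MC903 libraries below all SPF MC903 libraries and GF ethanol libraries above all SPF ethanol libraries.

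Hexokinase traps glucose in the cell as glucose 6-phosphate. Hk2, the inducible form, rose from 47.7 ± 0.674 to 106.9 ± 3.01 CPM in SPF skin and from 42.4 ± 2.56 to 99.9 ± 8.03 CPM in GF skin. Its changes of 1.16 ± 0.07 and 1.24 ± 0.07 differed by 0.07 ± 0.10 (adjusted p = 0.66), so no loss of the response in GF skin was detected here. Hk1, the form most cells hold, was at 120.1 ± 12.7 and 128 ± 11.5 CPM in SPF skin and at 87.9 ± 1.83 and 83.4 ± 3.42 CPM in GF skin. Its changes of 0.09 ± 0.08 and -0.08 ± 0.08 did not pass (adjusted p = 0.33 and 0.43), and they were -0.48 and -0.59 on library totals. With the trend of fold change with gene length removed, both passed as rises (0.40, adjusted p = 0.00046, and 0.20, adjusted p = 0.036). Hk1 was lower in GF than in SPF skin with ethanol (-0.45 ± 0.08, adjusted p = 0.0044) and with MC903 (-0.62 ± 0.08, adjusted p = 0.00011). Of the FPKM of both hexokinases, Hk2 took 23.1% ± 1.68 and, with MC903, 38.7% ± 2.09 in SPF skin, and 26.7% ± 1.31 and 47.4% ± 1.3 in GF skin. Gpi1, which turns glucose 6-phosphate into fructose 6-phosphate, changed by 0.91 ± 0.08 and 0.73 ± 0.08, with a difference of -0.18 ± 0.11 (adjusted p = 0.29).

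Phosphofructokinase is the committed step of glycolysis and has 3 subunit genes. Pfkl, the liver type, was at 35.0, 35.6 and 39.8 CPM with ethanol and 132.4, 142.0 and 128.3 CPM with MC903 in SPF skin. The GF libraries were at 54.7, 54.4 and 42.1 CPM and at 120.1, 103.6 and 114.7 CPM. It started higher in GF skin and ended lower without overlap, although the latter difference (-0.25 ± 0.10) did not pass the test (adjusted p = 0.062), though it did by DESeq2 (-0.27, adjusted p = 0.027). The changes were 1.87 ± 0.10 and 1.16 ± 0.10, with a difference of -0.70 ± 0.14 (adjusted p = 0.0056). Pfkm, the muscle type, fell: its SPF libraries went from 113.5, 110.4 and 126.2 to 80.6, 88.3 and 90.4 CPM. Its GF libraries went from 167.9, 169.1 and 174.4 to 132.1, 116.0 and 124.9 CPM. Both falls were alike in size, at -0.43 ± 0.07 and -0.46 ± 0.07, and GF skin was above SPF skin without overlap under both treatments. Skeletal muscle markers were likewise lower with MC903 and higher in GF skin under each treatment: their summed level was 1700 to 1963 CPM with ethanol and 991 to 1042 CPM with MC903 in SPF skin, and 2287 to 2533 and 1506 to 1530 CPM in GF skin. Their GF MC903 libraries lay below the SPF ethanol libraries, where those of Pfkm overlapped. Of the 10 muscle markers, 9 fell with MC903 in SPF skin and 8 in GF skin, and 9 were higher in GF skin under each treatment. Their part in the values of Pfkm was not tested. Pfkm also overlaps Senp1.

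Pfkp, the platelet type, rose by 1.57 ± 0.20 in SPF skin, from 78.5 ± 12.4 to 233.2 ± 45.9 CPM, and by 0.75 ± 0.20 in GF skin, from 81.3 ± 8.76 to 137.0 ± 41.3 CPM. The GF MC903 libraries were at 184.4, 108.8 and 117.9 CPM, so the first lay far above the others. The difference was -0.82 ± 0.28 and missed the threshold (adjusted p = 0.063), and without GF MC903 1 it was -1.09 (adjusted p = 0.0088), and by DESeq2 it was -0.85 (adjusted p = 0.0079). The GF rise did not pass on library totals (0.24, adjusted p = 0.27). With MC903 the composition of phosphofructokinase FPKM shifted in both housings. Pfkm went from 58.2% ± 3.72 to 24.6% ± 2.93 in SPF skin and from 64.0% ± 2.89 to 40.6% ± 2.96 in GF skin. Pfkl went from 14.1% ± 0.845 to 29.2% ± 1.52 and from 14.5% ± 1.83 to 28.3% ± 2.02.

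**Figure D3:**
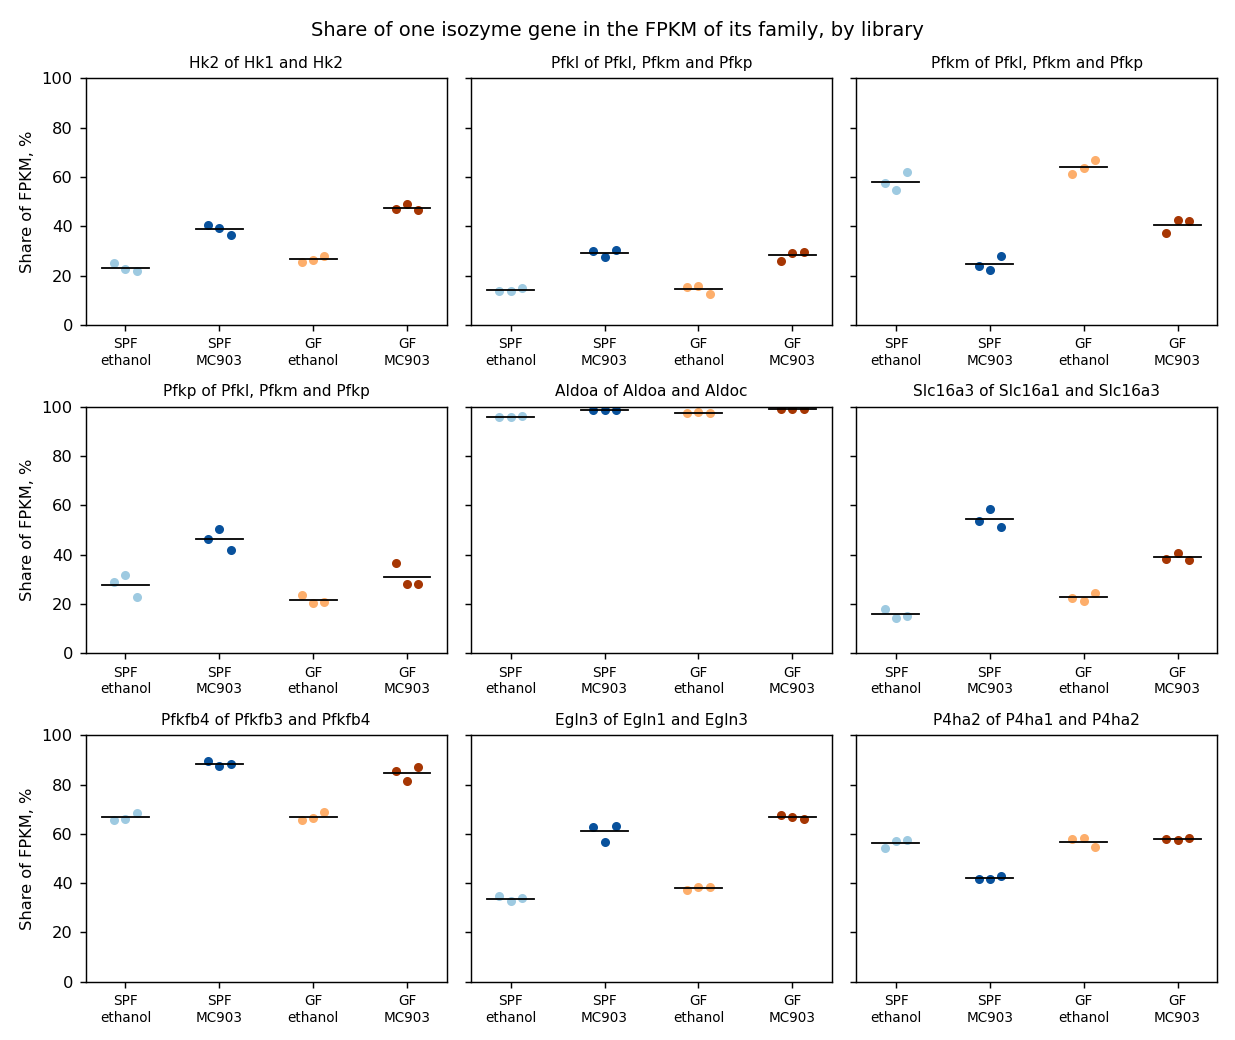
Share of the FPKM of related genes in each library, in percent, by group, for the isozyme and carrier families, with points for libraries and bars for the mean of 3. MC903 libraries hold a larger share of Hk2, Pfkl, Slc16a3, Pfkfb4 and Egln3 than ethanol libraries in both housings, while the share of P4ha2 is lower only in SPF MC903 libraries.

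Aldolase splits fructose 1,6-bisphosphate into triose phosphates. Aldoa, the muscle and general form, was at 472.5, 468.5 and 470.9 CPM and rose to 1017, 1125 and 970.0 CPM in SPF skin. GF libraries went from 633.0, 694.8 and 654.2 CPM to 1176, 1150 and 1129 CPM. It started higher in GF skin and ended just above all SPF libraries (0.15 ± 0.07, adjusted p = 0.083). The changes were 1.14 ± 0.07 and 0.80 ± 0.07. The difference of -0.34 ± 0.09 passed (adjusted p = 0.026), and it did not without SPF ethanol 2 (-0.34, adjusted p = 0.053) or without GF MC903 5 (-0.32, adjusted p = 0.059). Aldoc, the brain form, fell from 35.6, 35.1 and 32.4 to 26.1, 27.7 and 21.0 CPM in SPF skin. Its GF libraries fell from 28.2, 26.8 and 29.1 to 17.1, 20.1 and 19.4 CPM. The falls of -0.46 ± 0.10 and -0.57 ± 0.10 did not differ past the threshold (adjusted p = 0.66), and Aldoa supplied 95.9% to 99.2% of the aldolase FPKM of each library.

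The enzymes of the second phase, which harvest ATP and end in lactate, gave the most uniform pattern. All 7 genes rose in both housings, all 7 differences of responses were negative and past the threshold, all 7 were higher in GF than in SPF skin with ethanol and all 7 were lower with MC903. Of all genes tested, 35.0% rose in SPF skin and 33.4% in GF skin, and 9.26% had a negative difference of responses past the threshold. In GF skin 11.6% of all genes tested were higher with ethanol and 20.9% were lower with MC903. The median log2 change was 2.44 in SPF skin and 1.64 in GF skin, and the median difference was -0.71. Beside them, keratinocyte markers summed to 22350 to 24940 CPM with ethanol and 68220 to 80320 CPM with MC903 in SPF skin, and to 25770 to 29410 and 68840 to 69680 CPM in GF skin. Proliferation markers summed to 185 to 216 and 727 to 840 CPM in SPF skin and to 178 to 245 and 805 to 835 CPM in GF skin, and 7 of 7 rose in both. Macrophage and monocyte markers summed to 267 to 335 CPM in SPF MC903 libraries and 264 to 292 CPM in GF MC903 libraries. With MC903 these 3 sums overlapped between the housings. Within the 9 keratinocyte markers the difference of responses was negative in 5 and positive in 2 past the threshold. The overlapping sums hide single genes that differed between the housings with MC903. In GF skin 4 keratinocyte markers were higher and 3 lower, with Krt10 at 8709 CPM in SPF and 20800 CPM in GF skin and Krt6a at 12060 and 3730 CPM. Of 7 proliferation markers 1 was higher and 2 were lower, and of 6 macrophage and monocyte markers 0 were higher and 1 was lower. Some other marker sums were apart with MC903, and all of these were higher in GF skin. T cell markers summed to 9.08 to 10.5 CPM in SPF MC903 and 17.8 to 20.9 CPM in GF MC903 libraries, and 3 of 4 tested had a positive difference of responses. Neutrophil markers summed to 69.3 to 72.9 and 84 to 144.4 CPM, red blood cell markers to 104.2 to 264.6 and 421.1 to 497.6 CPM and cartilage markers to 288 to 310.3 and 312.6 to 313.2 CPM, and the muscle sums given above were apart too. Gene by gene these lists were less uniform. Of 5 cartilage markers tested, 1 was higher and 2 were lower in GF skin with MC903. Past the threshold 1 of 6 neutrophil and 1 of 4 red blood cell markers tested were higher, and 0 were lower. Most of the neutrophil sum was S100a8 and S100a9, with means of 31.0 and 51.8 CPM of 107 CPM in GF MC903 libraries. Ly6g was at 0 in every library of all groups but GF MC903. The part of all these cells in the enzymes' values was not tested.

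Tpi1 (chromosome 6, 124810586 to 124814158) interconverts the triose phosphates and overlaps Spsb2. It rose from 188.0, 160.1 and 189.9 to 496.6, 463.5 and 443.1 CPM in SPF skin. The GF libraries rose from 229.2, 235.4 and 220.0 to 396.2, 379.5 and 369.1 CPM. The changes were 1.38 ± 0.07 and 0.74 ± 0.07, the smallest of the phase, with a difference of -0.64 ± 0.10 (adjusted p = 0.0015).

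Gapdh (chromosome 6, 125161852 to 125166467) oxidises glyceraldehyde 3-phosphate and is often taken as a reference gene of constant level. Its SPF libraries went from 527.0, 501.2 and 523.6 CPM to 2328, 2311 and 2254 CPM. Its GF libraries went from 578.6, 599.1 and 599.7 CPM to 1346, 1227 and 1394 CPM. The rise was 4.44-fold in SPF skin (2.15 ± 0.07, adjusted p = 1e-10) and 2.23-fold in GF skin (1.16 ± 0.06, adjusted p = 2e-08). Their difference of -0.99 ± 0.09 (adjusted p = 5.2e-05) was the largest of the 7 enzymes, so in these samples Gapdh moved with both treatment and housing.

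Phosphoglycerate kinase, Pgk1 (chromosome X, 106187100 to 106203699), makes the first ATP of the phase. Its levels were 118.1, 102.8 and 110.6 CPM with ethanol and 584.9, 627.4 and 586.8 CPM with MC903 in SPF skin. In GF skin they were 132.5, 137.7 and 132.5 CPM and 425.3, 398.3 and 434.2 CPM. With MC903 no GF library came near the lowest SPF library, and the changes of 2.44 ± 0.07 and 1.64 ± 0.06 differed by -0.80 ± 0.09 (adjusted p = 0.00016). Pgam1, the mutase of the next step, stood at 88.1, 84.1 and 88.7 CPM and then at 338.1, 332.0 and 329.3 CPM in SPF skin. In GF skin it stood at 97.5, 101.1 and 94.8 CPM and then at 223.9, 216.5 and 220.0 CPM. It had the smallest SE of the phase, with changes of 1.94 ± 0.05 and 1.17 ± 0.05 and a difference of -0.77 ± 0.07 (adjusted p = 4.9e-05).

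Enolase 1, Eno1, makes phosphoenolpyruvate. It rose from 241.5, 211.8 and 221.0 CPM to 1277, 1377 and 1205 CPM in SPF skin. In GF skin it rose from 277.9, 316.4 and 274.1 CPM to 1035, 965.8 and 1082 CPM. The changes were 2.52 ± 0.09 and 1.83 ± 0.08, with a difference of -0.69 ± 0.11 (adjusted p = 0.0018). Its near-identical copy Eno1b took between 0.0247% and 1.58% of the counts of the pair and varied between libraries of a group.

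Pyruvate kinase, Pkm, makes pyruvate and the last ATP. The SPF libraries held 548.2, 523.8 and 537.2 CPM with ethanol and 3185, 3326 and 2828 CPM with MC903. The GF libraries held 607.6, 684.9 and 643.6 CPM and 2323, 2367 and 2275 CPM. The changes were 2.54 ± 0.08 (5.80-fold) and 1.85 ± 0.08 (3.6-fold), and the difference was -0.69 ± 0.11 (adjusted p = 0.0012). The table gives 1 value for the gene, so the M1 and M2 splice forms were not separated. Ldha (chromosome 7, 46842274 to 46855627), which makes lactate and restores NAD+, held 347.2, 332.9 and 330.5 CPM and then 2062, 2265 and 1957 CPM in SPF skin. GF libraries held 439.5, 495.6 and 434.2 CPM and then 1784, 1639 and 1766 CPM. Its rise was the largest of the enzymes in each housing, 2.64 ± 0.08 (6.22-fold) and 1.92 ± 0.08 (3.79-fold), and the difference was -0.71 ± 0.11 (adjusted p = 0.0011).

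Together the 15 enzymes took 0.436% ± 0.0206 (SD, n = 3) of all FPKM in SPF ethanol libraries and 0.948% ± 0.0185 with MC903. In GF skin they took 0.486% ± 0.00294 and 0.690% ± 0.0295. The 4 groups did not overlap in this share. Within a library FPKM also orders the genes. Gapdh was highest of the 36 in SPF ethanol libraries (437.5 ± 19.2 FPKM), ahead of Aldoa (370.0 ± 7.10) and Pkm (265.2 ± 10.6). In GF MC903 libraries the order was Ldha (862.1 ± 41.1), Pkm (773.1 ± 12.3) and Gapdh (753.2 ± 51.6), of which Pkm and Gapdh lay within their spread. Car9 was lowest in all groups, at 0.772 to 1.33 FPKM.

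The regulators of flux went in different directions. Pfkfb4 and Pfkfb3 make fructose 2,6-bisphosphate, the activator of phosphofructokinase, and Pdk1 is a kinase that holds back pyruvate dehydrogenase. Pfkfb4 rose from 30.9, 28.8 and 28.0 to 101.1, 88.5 and 101.8 CPM in SPF skin. The GF libraries rose from 27.7, 26.5 and 30.0 to 63.8, 52.8 and 65.9 CPM. The housings overlapped with ethanol and were apart with MC903, with changes of 1.73 ± 0.10 and 1.12 ± 0.09 and a difference of -0.62 ± 0.13 (adjusted p = 0.008). Pfkfb3 was at 21.8 ± 2.42 and 18.9 ± 1.15 CPM in SPF skin, a change of -0.21 ± 0.10 that did not pass (adjusted p = 0.069). It passed without SPF ethanol 3 (-0.29, adjusted p = 0.018), with genes held to a CPM of at least 1 in 6 libraries (-0.24, adjusted p = 0.04) and on library totals (-0.79, adjusted p = 1.5e-05), and was 0.23 with the length trend removed. In GF skin it fell from 20.7 ± 0.941 to 16.5 ± 1.54 CPM (-0.32 ± 0.10, adjusted p = 0.011), a change that was 0.05 with the length trend removed. Pdk1, a textbook HIF-1 target, fell from 99.4, 112.9 and 103.3 to 60.1, 59.6 and 56.6 CPM in SPF skin. Its GF libraries fell from 77.0, 73.1 and 86.8 to 50.5, 56.0 and 48.2 CPM. In the main model this was the largest fall of the 36 genes in each housing, -0.84 ± 0.08 and -0.61 ± 0.08, opposite in direction to Ldha. The difference of 0.23 ± 0.11 did not pass (adjusted p = 0.21). Across the alternatives the Pdk1 change lay between -1.42 and -0.38 in SPF skin and between -1.13 and -0.22 in GF skin. Its rank did not hold throughout, as P4ha2 in SPF skin was never weaker than -0.51 and Aldoc in GF skin never weaker than -0.50.

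Of the 3 genes of oxygen sensing, Hif1a had a difference of responses past the threshold, while Egln3 and Egln1 rose in both housings with differences that did not pass. Hif1a (chromosome 12, 73901324 to 73947554) encodes the alpha subunit of HIF-1, whose activity is set mainly by protein stability, which these data do not measure. Its mRNA stood at 74.2, 74.6 and 87.7 CPM with ethanol and at 226.6, 252.6 and 355.9 CPM with MC903 in SPF skin. The GF libraries stood at 66.8, 64.6 and 66.8 CPM and at 71.8, 86.5 and 84.0 CPM. All SPF MC903 libraries were far above the other 9, and the third was the highest. The change was 1.82 ± 0.14 (3.53-fold, adjusted p = 1.7e-07) in SPF skin and 0.29 ± 0.14 (1.22-fold) in GF skin. The GF change missed the threshold (adjusted p = 0.083) and passed it without SPF MC903 1 (0.29, adjusted p = 0.048) or SPF MC903 3 (0.29, adjusted p = 0.012), by DESeq2 (0.31, adjusted p = 0.045), with only the 6 GF libraries (0.29, adjusted p = 0.0091) and with the length trend removed (0.64, adjusted p = 0.00087). On library totals it was -0.22. The difference of -1.53 ± 0.20 (adjusted p = 0.00044) was the largest of the 36 genes and lay between -1.66 and -1.32 when single libraries were left out.

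The prolyl hydroxylases Egln1 (also PHD2) and Egln3 (also PHD3) mark HIF-1 alpha for destruction, and Egln3 is itself a strong target of HIF-1. Egln3 rose from 39.5, 38.8 and 38.3 to 164.0, 142.7 and 173.1 CPM in SPF skin. In GF skin it rose from 47.8, 50.2 and 46.3 to 233.9, 222.0 and 201.1 CPM. It was the largest rise of the 36 in GF skin, and the GF libraries were the higher under both treatments. Its changes of 2.04 ± 0.08 and 2.19 ± 0.08 differed by 0.15 ± 0.11, which did not pass (adjusted p = 0.41). Egln1 rose by 0.42 ± 0.06 and 0.46 ± 0.06, from 100.3 ± 4.67 to 134.3 ± 7.57 CPM and from 103.3 ± 4.69 to 142.5 ± 4.76 CPM, with a difference of 0.04 (adjusted p = 0.79), but on library totals these changes were -0.16 and -0.05.

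**Figure D4:**
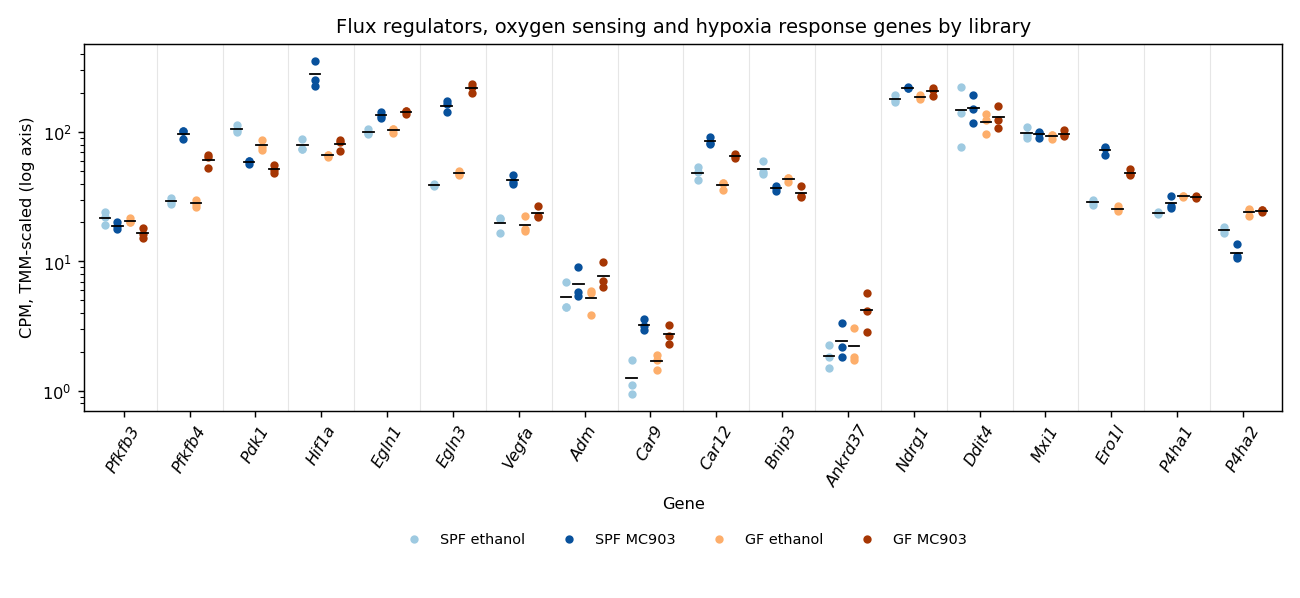
CPM on TMM-scaled library sizes (log axis) of the regulators of flux, the oxygen sensing genes and the 12 hypoxia response genes in each library, coloured by group, with a black bar at each group's mean of 3 libraries. Hif1a is high in the SPF MC903 libraries only, at 227 to 356 CPM, Egln3 is high with MC903 in both housings, and P4ha2 is low in SPF MC903 libraries.

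The 12 hypoxia response genes were mixed. In SPF skin 6 rose, 2 fell and 4 did not pass, and in GF skin 4 rose, 1 fell and 7 did not pass. Of all genes tested, 35.0% rose in SPF skin and 33.4% in GF skin, so the GF count of rises is near that of all genes. The difference of responses was negative for Vegfa and Ero1l and positive for P4ha2. Vegfa, the main growth factor of blood vessels, stood at 21.7, 16.7 and 21.1 CPM with ethanol and 39.7, 46.6 and 41.0 CPM with MC903 in SPF skin. In GF skin it stood at 22.4, 17.9 and 17.1 CPM and at 21.9, 26.9 and 22.5 CPM. As with Hif1a, the SPF MC903 libraries were above all the others. Its changes were 1.10 ± 0.13 (adjusted p = 8.2e-06) and 0.31 ± 0.13 (adjusted p = 0.052), with a difference of -0.78 ± 0.19 (adjusted p = 0.014). The GF change passed the threshold without GF ethanol 1 (0.44, adjusted p = 0.013), GF MC903 1 (0.37, adjusted p = 0.046), SPF ethanol 2 (0.31, adjusted p = 0.036) or SPF MC903 2 (0.31, adjusted p = 0.05), and also by DESeq2 (0.33, adjusted p = 0.023), with its size factors in edgeR (0.33, adjusted p = 0.039) and with the length trend removed (0.45, adjusted p = 0.0089). On library totals it was -0.20. Adm, which encodes the vessel-dilating peptide adrenomedullin, was low and variable at 3.86 to 9.84 CPM over the 12 libraries. Its changes were 0.35 ± 0.26 and 0.58 ± 0.26 (adjusted p = 0.23 and 0.06). The GF change passed without SPF ethanol 2 (0.58, adjusted p = 0.045), SPF MC903 3 (0.58, adjusted p = 0.039) or GF MC903 5 (0.71, adjusted p = 0.045), by DESeq2 (0.60, adjusted p = 0.027) and with only the GF libraries (0.58, adjusted p = 0.037). The SPF change was -0.22 on library totals.

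The carbonic anhydrases Car9 and Car12 buffer the acid that glycolysis makes. Car12 rose from 48.5 ± 5.85 to 84.6 ± 6.00 CPM in SPF skin and from 38.8 ± 2.58 to 65.3 ± 2.57 CPM in GF skin. Its changes of 0.80 ± 0.09 and 0.75 ± 0.09 differed by -0.05 ± 0.13 (adjusted p = 0.83). Both calls ended on library totals (0.22, adjusted p = 0.061, and 0.24, adjusted p = 0.053). Car9, a sensitive hypoxia marker in many tumours, was at 0.949 to 3.62 CPM and overlaps Arhgef39 and Tpm2. It rose by 1.35 ± 0.23 (adjusted p = 0.00018) and 0.70 ± 0.23 (adjusted p = 0.017). The GF call ended without GF ethanol 4 (0.62, adjusted p = 0.058) or GF MC903 5 (0.56, adjusted p = 0.075), on library totals (0.18, adjusted p = 0.51) and with the length trend removed (0.55, adjusted p = 0.053).

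Genes for protein folding and collagen modification split by gene. Ero1l, an oxidase that makes disulfide bonds in the endoplasmic reticulum, rose from 30.0, 27.3 and 29.0 to 66.5, 75.8 and 76.9 CPM in SPF skin. The GF libraries rose from 26.8, 25.4 and 24.7 to 47.1, 51.5 and 46.8 CPM. The changes were 1.34 ± 0.08 and 0.92 ± 0.08, with a difference of -0.43 ± 0.11 (adjusted p = 0.019). P4ha1 and P4ha2 encode the catalytic subunits of collagen prolyl 4-hydroxylase. P4ha2 fell from 16.6, 17.6 and 18.4 to 11, 10.6 and 13.6 CPM in SPF skin. In GF skin it was at 24.9, 25.4 and 22.3 CPM and at 25.2, 24.1 and 24.8 CPM. The GF libraries lay above all SPF libraries, and MC903 changed the level by -0.58 ± 0.10 (adjusted p = 0.00015) in SPF and 0.03 ± 0.10 (adjusted p = 0.78) in GF skin, the latter -0.48 on library totals (adjusted p = 0.0008). The difference of 0.61 ± 0.14 (adjusted p = 0.01) was the only positive one past the threshold. P4ha1 went from 23.7 ± 0.56 to 28.3 ± 3.53 CPM in SPF skin, a rise of 0.25 ± 0.08 (adjusted p = 0.014) that was lost without SPF MC903 3 (0.15, adjusted p = 0.051) and was -0.32 on library totals. The GF libraries were at 31.9 ± 0.284 and 31.7 ± 0.545 CPM, a change that was -0.52 on library totals and 0.25 with the length trend removed. Fibroblasts, the main source of collagen, had summed marker levels of 9937 to 11390 and, with MC903, 5136 to 6554 CPM in SPF skin and of 7922 to 9612 and 4772 to 6044 CPM in GF skin, and 6 of 6 markers fell in both. Their part in these values was not tested.

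Of the remaining hypoxia targets, Bnip3 fell in both housings, Ndrg1 rose in SPF skin, Ankrd37 rose in GF skin, and Ddit4 and Mxi1 did not pass in either. Bnip3, which directs the removal of mitochondria, fell from 48.9, 59.6 and 47.1 to 35.0, 38.1 and 37.2 CPM in SPF skin. Its GF libraries fell from 43.8, 44.5 and 40.8 to 31.9, 38.2 and 31.5 CPM. The falls were -0.50 ± 0.10 and -0.34 ± 0.10, and their difference did not pass (adjusted p = 0.52). Low oxygen usually raises this gene, but these data do not measure oxygen, and its part here was not tested. Ndrg1, a differentiation and stress gene, was at 179.8 ± 12.4 and 220.3 ± 1.47 CPM in SPF skin (0.29 ± 0.07, adjusted p = 0.0014) and at 185.4 ± 6.12 and 205.8 ± 14.7 CPM in GF skin (0.15 ± 0.07, adjusted p = 0.058). These were -0.28 and -0.36 on library totals, and the GF change passed without GF MC903 5 (0.21, adjusted p = 0.018), GF ethanol 4 (0.19, adjusted p = 0.041) or SPF ethanol 2 (0.15, adjusted p = 0.045), by DESeq2 (0.17, adjusted p = 0.043), with its size factors (0.17, adjusted p = 0.047) and with the length trend removed (0.21, adjusted p = 0.012). Ankrd37, whose product has ankyrin repeats, was at 1.51 to 5.67 CPM. It rose in GF skin (0.94 ± 0.31, adjusted p = 0.016), though libraries overlapped, and not past the threshold in SPF skin (0.39 ± 0.31, adjusted p = 0.28). The GF call ended without GF ethanol 1 (0.80, adjusted p = 0.065), GF ethanol 5 (0.82, adjusted p = 0.06) or GF MC903 4 (0.67, adjusted p = 0.083), on library totals (0.43, adjusted p = 0.2) and with the length trend removed (0.26, adjusted p = 0.43). The SPF change was -0.19 on library totals and -0.23 with the length trend removed. Ddit4 (also REDD1), a brake on growth signalling through mTOR, ranged from 76.9 to 224.2 CPM within the SPF ethanol group alone, and its changes of 0.07 ± 0.31 and 0.12 ± 0.31 did not pass and were -0.51 and -0.39 on library totals. Mxi1, which opposes Myc, held 88.8 to 108.8 CPM in all libraries, with changes of -0.03 ± 0.08 and 0.06 ± 0.08 that did not pass. The Mxi1 changes were -0.60 and -0.45 on library totals and 0.42 and 0.44 with the length trend removed, and passed in each case.

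Without MC903 the housings already differed. With ethanol 14 of the 36 genes were higher and 3 lower in GF than in SPF skin, against 11.6% and 10.3% of all genes tested, and the median difference was 0.05 beside 0.00 for all genes. The largest were Slc16a3 (0.59 ± 0.12, adjusted p = 0.0057), Pfkm (0.55 ± 0.07, adjusted p = 0.00081) and Aldoa (0.49 ± 0.07, adjusted p = 0.001), and the lower ones were Hk1, Pdk1 (-0.41 ± 0.08, adjusted p = 0.0055) and Car12 (-0.32 ± 0.09, adjusted p = 0.026). The 7 enzymes of the second phase were higher by 0.17 (Pgam1) to 0.44 (Ldha). These differences are small: leaving out GF ethanol 4 ended the calls of Gapdh (0.18, adjusted p = 0.13), Pgam1 (0.14, adjusted p = 0.12), Pkm (0.21, adjusted p = 0.11), Egln3 (0.27, adjusted p = 0.086) and Car12 (-0.28, adjusted p = 0.11). Other single libraries ended some of the same calls: SPF ethanol 1 (Gapdh 0.21, Car12 -0.24), SPF ethanol 2 (Gapdh 0.17, Pgam1 0.15, Pkm 0.25), SPF ethanol 3 (Gapdh 0.20, Pkm 0.27, Egln3 0.30, Car12 -0.31), GF ethanol 1 (Gapdh 0.21, Pgam1 0.17), GF ethanol 5 (Gapdh 0.19, Pkm 0.27) and GF MC903 1 (Gapdh 0.20). Aldoc, at -0.30 ± 0.10 (adjusted p = 0.054), passed without SPF MC903 2 (-0.29) or SPF MC903 3 (-0.29), by DESeq2 (adjusted p = 0.032), by limma voom (adjusted p = 0.03), with a CPM of at least 1 in 6 libraries (adjusted p = 0.043), on library totals (adjusted p = 0.027) and with only the ethanol libraries (adjusted p = 0.014). Bnip3, at -0.27 ± 0.10 (adjusted p = 0.074), passed without GF MC903 4 (-0.27), on library totals (-0.32) and with the length trend removed (-0.40). Hif1a, which did not pass, did so with only the ethanol libraries (-0.26, adjusted p = 0.039). On library totals the calls of Gapdh (0.14) and Pgam1 (0.11) ended and Hk2 passed (-0.23, adjusted p = 0.035), and with only the ethanol libraries that of Pgam1 ended (0.17, adjusted p = 0.069). Removing the trend of fold change with gene length left 9 higher genes and ended the calls of Tpi1 (0.20), Gapdh (0.02), Pgk1 (0.16), Pgam1 (0.05), Pkm (0.22) and Car12 (-0.26). With that trend removed 1150 of all genes tested were higher in GF skin, down from 1914. The muscle markers given above were also higher in GF skin with ethanol, and skeletal muscle is rich in Pfkm and Aldoa, though its part in these differences was not tested.

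With MC903 the order was turned for some genes. Slc16a3 and the enzymes of the second phase went from higher to lower in GF skin. Pfkm, P4ha2 and Egln3 were higher under both treatments, and Hk1 and Car12 were lower under both. Of the 36 genes 17 were lower and 3 higher in GF than in SPF skin, against 20.9% and 20.8% of all genes tested and 41.7% in either direction, and the median difference was -0.25 beside 0.02. Of the lower genes, Hif1a differed most (-1.78 ± 0.14, 3.45-fold lower, adjusted p = 3.3e-06). Among them it was followed by Vegfa (-0.84 ± 0.13, adjusted p = 0.00033), Gapdh (-0.80 ± 0.06, adjusted p = 3e-06), Slc2a1 (-0.77 ± 0.08, adjusted p = 2.6e-05) and Pfkp (-0.77 ± 0.20, adjusted p = 0.0077). The 3 higher genes were P4ha2 (1.08 ± 0.10, adjusted p = 7.3e-06), Pfkm (0.52 ± 0.07, adjusted p = 0.00011) and Egln3 (0.45 ± 0.08, adjusted p = 0.00055). Leaving out 1 library added Slc16a1 (0.21 without SPF MC903 1), Aldoa (0.21 without SPF MC903 2), P4ha1 (0.27 without SPF MC903 3) and Ankrd37 (1.07 without SPF MC903 2, 1.0 without GF MC903 5, 0.78 without GF ethanol 4) to the higher genes. It added Pfkl (-0.25 without GF ethanol 5) and Pdk1 (-0.25 without GF MC903 4) to the lower ones. Other settings made Slc16a1 (0.18 on library totals or with a CPM of at least 1 in 6 libraries, 0.24 with the length trend removed), Aldoa (0.16 on library totals), P4ha1 (0.22 with the length trend removed) and Ankrd37 (0.77 by DESeq2) higher in GF skin. Pfkl was lower by DESeq2 (-0.27), with its size factors (-0.27) and with only the MC903 libraries (-0.26).

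Neighbouring pathways were counted over whole gene lists, which were chosen with earlier results of these data known. Their counts stand beside 35.0% rising and 38.8% falling of all genes tested in SPF skin, 33.4% and 35.1% in GF skin, and 7.75% positive and 9.26% negative differences of responses. Of 20 other tested genes of glycolysis, sugar and lactate, 5 rose and 8 fell in SPF skin, 5 and 9 in GF skin, so its share of rises was below that of all genes in both housings, and the difference was positive in 3. These were Pdk3 (0.63 ± 0.09) and Pdk2 (0.49 ± 0.14), kinases that like Pdk1 hold back pyruvate dehydrogenase, and Ldhb (0.48 ± 0.14), the heart form of lactate dehydrogenase. Ldhb fell from 63.4 ± 7.45 to 27.8 ± 2.12 CPM in SPF skin and from 89.0 ± 6.50 to 54.7 ± 3.66 CPM in GF skin, while Ldha rose. Of 11 genes of gluconeogenesis and glycogen, 4 rose and 5 fell in SPF skin, 4 and 6 in GF skin, and 5 differences were negative. Fbp2, the muscle form of fructose 1,6-bisphosphatase, went from 0.769 ± 0.682 to 86.1 ± 8.30 CPM in SPF skin and from 1.83 ± 0.849 to 44.9 ± 1.40 CPM in GF skin, with a difference of -2.17 ± 0.57 (adjusted p = 0.023). Pck2, which makes phosphoenolpyruvate in mitochondria, rose by 2.64 ± 0.13 and 1.54 ± 0.12, with a difference of -1.11 ± 0.17 (adjusted p = 0.0012).

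The pentose phosphate pathway makes NADPH and ribose from glucose 6-phosphate, and 8 of its 8 genes rose in SPF skin and 7 in GF skin. The differences of Pgd (-0.66 ± 0.12, adjusted p = 0.0029) and G6pdx (-0.60 ± 0.07, adjusted p = 0.00031), its NADPH-making enzymes, were negative. Of 21 genes from pyruvate to the tricarboxylic acid cycle, 16 rose and 2 fell in SPF skin and 14 and 2 in GF skin, with smaller medians of 0.46 and 0.31. Mdh2, malate dehydrogenase, led them with 1.21 ± 0.06 and 0.84 ± 0.06, while Mpc1, a subunit of the mitochondrial pyruvate carrier, fell by 0.34 and 0.48 on the log2 scale. The medians of these lists stood beside -0.10 and -0.07 for all genes tested, of which 35.0% rose in SPF skin and 33.4% in GF skin.

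Regulators of hypoxia-inducible factors mostly fell, with 2 rising and 8 falling of 12 in SPF skin and 3 and 8 in GF skin, where 38.8% and 35.1% of all genes tested fell. Siah2, a ligase that degrades prolyl hydroxylases, rose by 2.15 ± 0.11 and 1.45 ± 0.10, and Epas1, which encodes HIF-2 alpha, by 1.05 ± 0.11 and 0.84 ± 0.11. Hif1an, which hydroxylates HIF alpha to block its coactivators, fell by 0.66 and 0.17 on the log2 scale, with a difference of 0.49 ± 0.08 (adjusted p = 0.0015). Epas1, unlike Hif1a, showed no detectable difference of responses (-0.21 ± 0.15, adjusted p = 0.38). Of 24 other hypoxia response genes, 14 rose and 5 fell in SPF skin and 12 and 6 in GF skin, and the difference was negative in 5 and positive in 1. Fam162a, a mitochondrial protein gene, rose most, from 21.0 ± 1.49 to 386.9 ± 53.1 CPM and from 29.9 ± 3.76 to 301.7 ± 22.6 CPM (difference -0.86 ± 0.16, adjusted p = 0.003). Hmox1, heme oxygenase, rose by 2.61 ± 0.10 and 1.94 ± 0.10. Stc2, a secreted glycoprotein gene, rose by 2.09 ± 0.26 in SPF skin and changed by 0.46 ± 0.25 (adjusted p = 0.12) in GF skin, with a difference of -1.63 ± 0.35 (adjusted p = 0.0084). Hilpda, a lipid droplet gene, was the positive one (0.81 ± 0.23, adjusted p = 0.033).

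Other genes of vascular signals, ligands as well as receptors, did not rise past the threshold in either housing. Of 14 vascular ligands and receptors, 9 fell in SPF skin and 10 in GF skin, and the rest did not pass the test, where 38.8% and 35.1% of all genes tested fell. Kdr, the main receptor of VEGF-A, fell from 17.1 ± 1.67 to 13.6 ± 1.97 CPM in SPF skin (-0.33 ± 0.12) and from 18.3 ± 0.801 to 8.76 ± 0.813 CPM in GF skin (-1.06 ± 0.12), with a difference of -0.73 ± 0.16 (adjusted p = 0.01). Calcrl, the receptor of adrenomedullin, fell by 1.55 and 1.41 on the log2 scale. Endothelial markers summed to 127 to 137 and, with MC903, 106 to 120 CPM in SPF skin and to 146 to 152 and 108 to 115 CPM in GF skin, where 4 and 5 of 6 fell. Their part in the receptors' values was not tested. In the Myc family, which Mxi1 opposes, 5 rose and 6 fell of 11 in SPF skin and 5 and 5 in GF skin. Mxd1, a Myc antagonist of differentiating cells, rose by 2.01 ± 0.09 and 1.74 ± 0.09, and Mycl fell from 87.0 ± 20.0 to 9.01 ± 0.788 CPM in SPF skin and from 98.6 ± 4.87 to 37.3 ± 4.34 CPM in GF skin (difference 1.87 ± 0.21, adjusted p = 0.00017).

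**Figure D5:**
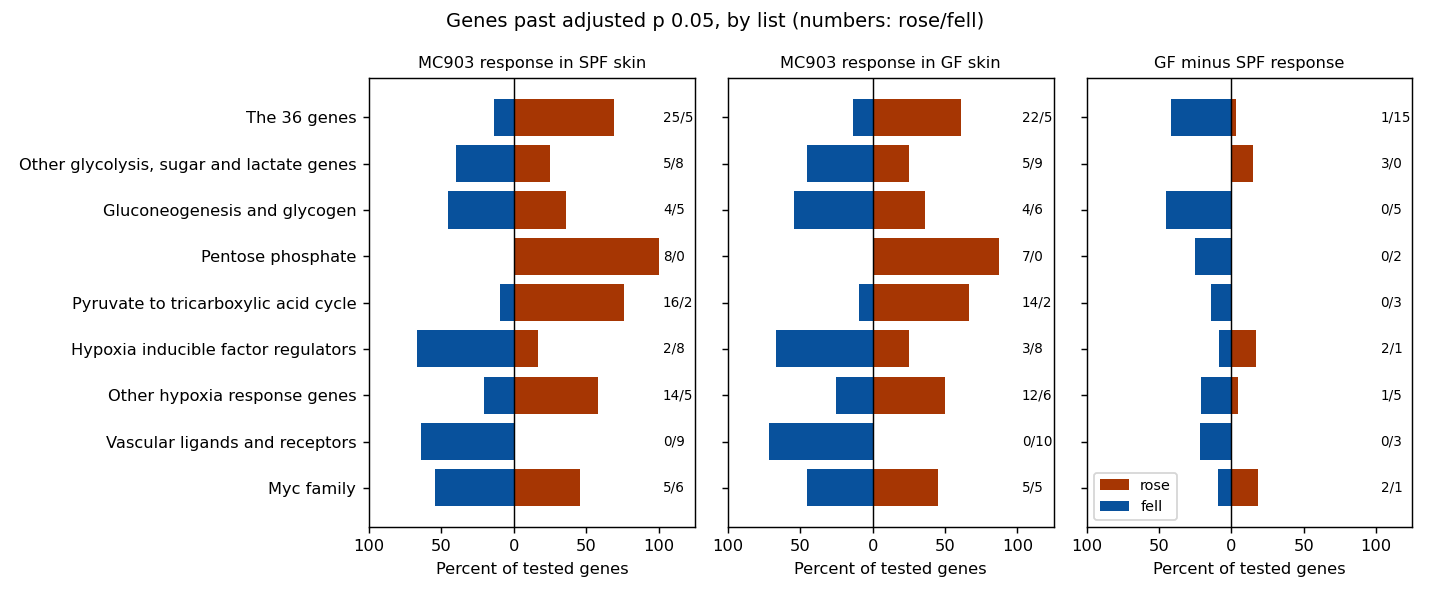
Percent of tested genes that rose (bars to the right) or fell (bars to the left) past an adjusted p of 0.05 among the 36 genes and in each neighbouring pathway list, in the SPF response, the GF response and the difference of responses, with the numbers that rose and fell printed beside each bar. The 36 genes show 25 rising in SPF skin, 22 in GF skin and 15 negative differences, and the vascular list shows 9 and 10 falling in the SPF and GF responses.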

How the data were processed

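Gene expression was measured in 12 libraries of mouse ear skin, 3 in each of 4 groups by housing and treatment, grouped by their labels. Per the labels' protocols, a kit for fibrous tissue gave the RNA, and TruSeq libraries were run on a HiSeq4000. HISAT2 2.1.0 and StringTie 1.3.4d are named in the submitters' processing notes, beside Trimmomatic, bcl2fastq 2.20.0 and the build mm10. Annotation, tool order and strand use were not given in the sources used here. In the 1 table the authors deposited, each library has a column of estimated counts and a column of FPKM, per the file headers. The deposited estimated counts are whole numbers and were used as they are. Because strand use is unknown, reads of overlapping genes cannot be separated (7 of the 36 genes), nor can reads of near-identical copies.

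Of 24532 genes, 4221 were at 0 in every library and 16466 passed filterByExpr (minimum count 10, minimum total 15). All were fitted in 1 model of 12 libraries with a coefficient per group (edgeR 4.0.16 in R 4.3.3, TMM scaling, quasi-likelihood test, common dispersion 0.0218), with Benjamini-Hochberg adjustment over all 16466 genes at 0.05. The SE is the log2 change divided by the root of F. MC903 was compared with ethanol within each housing, these responses with each other (GF minus SPF), and GF with SPF skin under each treatment. No replicates were duplicates: in 12 pairs the chi-square per degree of freedom was 17.3 to 45.2, above sampling noise. FPKM served only for comparisons within a library. The fit was tested on simulated data. Alternatives were DESeq2 1.42.0, limma voom (3.58.1), other scalings and filters, a replicate block, removal of a trend with gene length, and leaving out each library.

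The 36 genes and all lists were chosen with earlier results of these data known, so their direction is no independent evidence. All 36 genes are described. Values per library are given for genes past an adjusted p of 0.05 in the difference of responses and for the 3 largest rises and 3 largest falls in each response. Of other genes, at most the 3 largest rises and falls per list and comparison are named. All 36 genes matched RefSeq by gene ID, and coordinates and promoters are RefSeq's on GRCm38.p6, the build also called mm10.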

Additional observations from a re-analysis of the deposited data

Results flagged for a closer look

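In 16 of the 36 genes the response to MC903 differed between germ-free and SPF skin by the test of that difference itself (edgeR's quasi-likelihood test, adjusted p at most 0.026), and their values are log2, GF minus SPF. The carriers were Slc16a3 at -1.33 and Slc2a1 at -0.65. The enzymes were Pfkl at -0.70, Aldoa at -0.34, Tpi1 at -0.64, Gapdh at -0.99, Pgk1 at -0.80, Pgam1 at -0.77, Eno1 at -0.69, Pkm at -0.69 and Ldha at -0.71. The flux regulator Pfkfb4 was at -0.62 and the HIF-1 subunit gene Hif1a at -1.53. Of the hypoxia response genes, Vegfa was at -0.78 and Ero1l at -0.43, and P4ha2 alone was positive, at 0.61. Across every alternative run, these 16 differences kept their sign.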

How the results depend on the processing

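On library totals, without TMM factors, more genes fell: 11 in SPF skin, 10 in GF skin and 6 for GF minus SPF with ethanol, while 2 differences of responses were positive and 5 genes were higher in GF skin with MC903. Of all 16466 genes tested, 10106, 9697 and 2218 fell in the same comparisons. Of their differences of responses 1656 were positive, and 3586 genes were higher in GF skin with MC903. The SPF changes of Slc16a1 (-0.02), Hk1 (-0.48), Egln1 (-0.16), Ndrg1 (-0.28) and P4ha1 (-0.32) and the GF changes of Egln1 (-0.047), Ndrg1 (-0.36), Mxi1 (-0.45) and P4ha2 (-0.48) turned negative there. Changes that had not passed and were negative there were those of Hif1a (-0.22), Vegfa (-0.20) and Ddit4 (-0.39) in GF skin and of Adm (-0.22), Ankrd37 (-0.19) and Ddit4 (-0.51) in SPF skin. With the length trend removed, 9 genes were higher in GF skin with ethanol and 5 with MC903, and Mxi1 in SPF skin (0.42) and Hk1 (0.20), Pfkfb3 (0.05) and P4ha1 (0.25) in GF skin turned positive. Of all genes tested, 1150 and 2798 were higher in GF skin then, against 1914 and 3431 without this step. With only the libraries of the comparison, 5 genes were lower in GF skin with ethanol. Leaving out single libraries gave 3 to 5 genes higher in GF skin with MC903, the 5 without SPF MC903 2. The cause of these shifts was not tested.

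Same-numbered ethanol and MC903 libraries deviated together weakly or not at all (r between -0.0225 and 0.14 over 6 pairs). Not every library correlated best with its own number, and the numbers were not taken as pairs. With so few libraries this check cannot exclude that a shared number is a shared mouse. With the number as a replicate block, Aldoa (-0.33, adjusted p = 0.052) and Ero1l (-0.42, adjusted p = 0.053) missed the threshold in the difference of responses and Pfkp passed it (-0.85, adjusted p = 0.0066), and in GF skin Hif1a (0.29, adjusted p = 0.023) and Adm (0.58, adjusted p = 0.045) passed. The numbers of negative differences of responses were 14 with the block, 16 by DESeq2 and 15 by voom, under other size factors, under either filter, on library totals and with the length trend removed. Depth limits Car9, Ankrd37 and Adm, the genes of lowest CPM, most.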
